A study of Mus musculus with 4 samples.

Results

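The glucocorticoid-induced target genes described here are 34 genes known to be activated by the glucocorticoid receptor in many tissues, and their mRNA was measured in the spinal cord of nerve-injured mice with and without adrenal glands. They were chosen by name, as known targets of the receptor. All 34 were on the arrays, which carry 30222 gene names in all, and they were measured by 49 probes. For each gene the probe with the highest mean level was taken. That probe gave a signal well above background on all 4 arrays for each of the 34 genes, which was so for 19055 of all gene names. These 19055 genes are the background against which the members are read below.

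The mice were male ICR mice, 5 to 6 weeks old, and all of them received a partial ligation of the sciatic nerve (PSL) in the right hindlimb. Sham+PSL mice had kept their adrenal glands after a sham operation, whereas ADX+PSL mice had been adrenalectomized and drank saline. The study reports that the injured paw became hypersensitive to touch in sham+PSL mice but not in ADX+PSL mice. RNA came from slices of lumbar segments 4 to 5 on day 7 after injury, at zeitgeber time (ZT) 10, late in the light phase, or at ZT22, late in the dark phase. By the study's design, ZT10 is when glucocorticoids in the blood of sham+PSL mice peak and ZT22 is when they are low, and the arrays ask which spinal genes follow this rhythm when the adrenal glands are present. Each of the 4 conditions had 1 array, and neither the number of mice behind an RNA nor the side of the slices is stated in the sources used here. The arrays are of 1 colour, with cyanine 3 as the dye, and 27097 of 39429 probes were well above background in sham+PSL at ZT10, 26387 at ZT22, and 27652 and 25658 at these times in ADX+PSL.

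Levels are the authors' normalized intensities, on a linear scale without unit, which can be compared between arrays for a probe and not between probes. Where they are given in pairs, ZT10 comes first. Since no condition has a replicate, no difference below could be tested, and the error used is the extraction software's error of the spot. This spot error of a log2 ratio lay between 0.20 and 0.24 for the members, with a median of 0.20. It was nearly the same for all but dim probes, so that a limit in spot errors is close to a fixed ratio. It covers the measurement of the spot alone and not the variation between mice. For probes printed 10 times, the SD of the log2 signal over spots had a median between 0.044 and 0.059 by array. A ratio of 1.5 between 2 arrays was taken as the limit for a difference, in either direction.

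Glucocorticoids cross the cell membrane and bind the glucocorticoid receptor, which leaves its chaperones, enters the nucleus and binds DNA at response elements made of 2 hexamers that face each other. Many of the genes it activates restrain the response itself or inflammation, others redirect the use of sugar and fat, and others are transcription factors that carry the response further. In the nervous system astrocytes, oligodendrocytes and endothelial cells are known to respond to the hormone. The receptor gene *Nr3c1* was measured at a level of 6282 at ZT10 and 7909 at ZT22 in sham+PSL mice and at 6677 at both times in ADX+PSL mice. The mineralocorticoid receptor *Nr3c2*, which binds the same hormones, had levels between 90.9 and 129.9. *Hsd11b1*, the enzyme that regenerates active hormone within cells, had 1659 (ZT10) and 2847 (ZT22) on the sham+PSL arrays, and 1892 and 2799 on the ADX+PSL arrays, so that by the deposited labels it was lower at ZT10 in both operations, and with the ADX+PSL labels exchanged its ADX+PSL log2 time ratio was 0.56. *Hsd11b2*, the enzyme that inactivates the hormone, was at background on all 4 arrays.

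The labels of tissue were set against marker genes. Of 5 neuronal, 7 astrocyte, 6 microglial and 6 endothelial genes, each was well above background on all 4 arrays, with *Snap25*, *Gfap*, *Itgam* and *Flt1* as the genes with the brightest probes of their lists. The same held for 5 of 5 *Hox* genes of the lumbar cord, among them *Hoxc10* with levels between 1552 and 2052. Levels within these lists still differed between the arrays. *Gfap*, a filament of astrocytes, had 8565 in ADX+PSL at ZT10 and between 15516 and 18028 on the others. The astrocyte list as a whole did not share this. Of its 7 genes, 4 were higher in ADX+PSL than in sham+PSL at ZT10, with a median log2 ratio of 0.04. All 6 microglial genes were lower at ZT10 in sham+PSL (median log2 ratio -0.39). In ADX+PSL, by the deposited labels, 1 of the 6 had a ratio of ZT10 to ZT22 above 1 (median -0.21). Of all genes, 50.9% had a ratio above 1 in sham+PSL and 50.1% in ADX+PSL. The summed level of 8 meningeal fibroblast genes, of which *Dcn* had the brightest probe, was 16655 at ZT10 and 13647 at ZT22 in sham+PSL and 4684 and 5220.3 in ADX+PSL, and all 7 of them that were measured on every array were lower on both ADX+PSL arrays. The summed level of 5 red blood cell genes, of which *Hba-a2* had the brightest probe, was low on the sham+PSL ZT22 array, with 17931 against 128729, 90028 and 81049 on the sham+PSL ZT10, ADX+PSL ZT10 and ADX+PSL ZT22 arrays. Skeletal muscle genes stood out on the sham+PSL ZT10 array. Their 6 genes, of which *Myh4* had the brightest probe, summed to 1528 there and to between 113 and 116 on the others, while *Mylpf* and *Myh1* were not well above background on any array. Among 7 adipocyte genes, the defining markers *Adipoq*, *Plin1*, *Lep* and *Cidec* were not well above background on any array, *Retn* was on all 4 (25.8 to 36.2), *Fabp4* on the sham+PSL ZT10 array and *Cfd* on both ZT10 arrays, where *Plin4* was high too, and the whole list summed to between 69.7 and 93.4. Of 4 neutrophil genes, of which *S100a9* had the brightest probe, *Ngp* was at background on all 4 arrays, and the list summed to 695 (ZT10) and 413 (ZT22) on the sham+PSL arrays, and to 283 and 531 on the ADX+PSL arrays. The part of these cell types in the results below was not tested, except where a value is given. In RNA of whole slices, fewer cells of a type and less RNA per cell cannot be told apart.

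**Figure D1:**
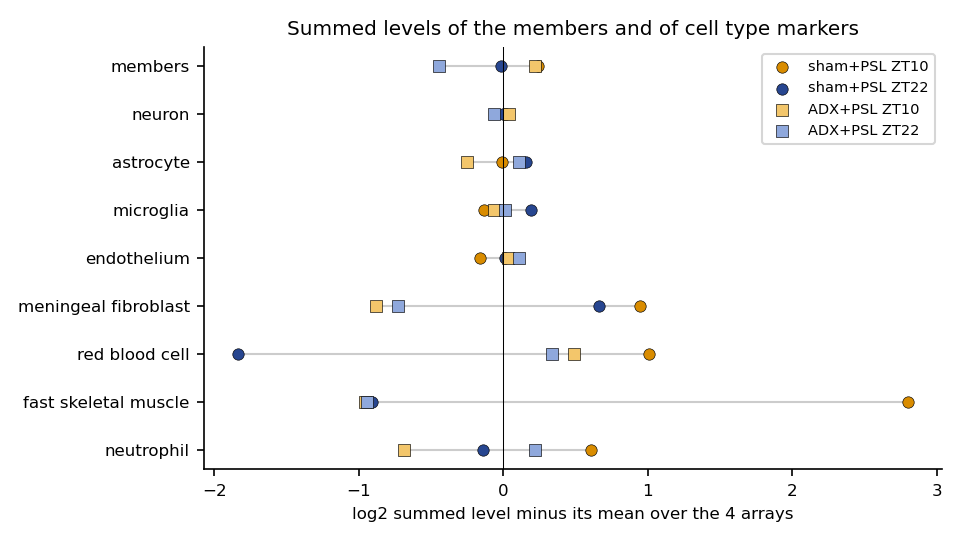
Summed levels of the 34 members and of 8 lists of cell type markers, as log2 minus the mean over the 4 arrays (horizontal axis), with 1 point per array (circles sham+PSL, squares ADX+PSL, orange ZT10, blue ZT22). The sum of the members is weighted towards *Mt1* and *Mt2*, whose probes are the brightest of the members. Neuronal genes hardly move, fibroblast genes separate the operations, muscle genes stand out on the sham+PSL ZT10 array, and red blood cell genes are low on the sham+PSL ZT22 array.

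The time labels were set against clock genes. *Dbp* and *Nr1d1*, outputs of the circadian clock, gave 22527 and 715 at ZT10 and 16046 and 352 at ZT22 in sham+PSL, which are log2 ratios of ZT10 to ZT22 of 0.49 and 1.02. In ADX+PSL they had 6433 and 189 at ZT10 and 13262 and 319 at ZT22, with log2 ratios of -1.04 and -0.75. Their higher level was thus at ZT10 with adrenal glands and at ZT22 without them, and *Per2* had the same signs at smaller size (0.12 and -0.30). The related outputs *Nr1d2* (0.32 and 0.10) and *Tef* (0.05 and 0.17) were higher at ZT10 in both operations. *Per1*, which is a target of the receptor as well as a clock gene, did not share this pattern, with log2 ratios of 0.50 and 0.41, and *Arntl* had 0.06 and 0.34. Of the other clock genes looked at, *Per3* (-0.29 and -0.25) and *Cry1* (-0.38 and -0.01) had ratios below 1 in both operations. *Clock* had -0.06 and 0.21, and *Npas2* was well above background on the ZT10 arrays only. The direction of every ADX+PSL time ratio given here rests on the deposited labels of those arrays, and it is opposite to the orientation of the ADX+PSL time ratios that the study lists. The main counts, and single genes where such a value stands beside them, are therefore also given with these 2 labels exchanged. All other statements on the time point of an ADX+PSL array hold for the deposited labels alone.

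Promoter sequences from RefSeq (GRCm38.p6) were found for 29 of the 34 members, and not for *Zbtb16*, *Cebpd*, *Tgm2*, *Gpd1* and *Angptl4*. The 250 bases before each annotated start were searched on both strands for the palindromic core of the receptor's response element, ACANNNTGT, for its single hexamer TGTTCT, whose first 3 letters can be shared with the core, and for the E-box CACGTG, to which clock proteins bind. The core was present for 4 of the 29 members (13.8%), *Fam107a*, *Map3k6*, *Mt1* and *Txnip*, and for 6.76% of the 27025 genes in the table. The hexamer was present for 5 members (17.2%), *Bcl6*, *Fam107a*, *Lpin1*, *Sult1a1* and *Tsc22d3*, against 18.2% of all genes, and the E-box for 4 (13.8%), *Bcl6*, *Dusp1*, *Fkbp5* and *Net1*, against 6.86%. These matches are a description of the letters in the window. The sequences below are those of *Plin4*, *Sult1a1*, *Mfsd2a* and *Hif3a*, the members past 1.5-fold at ZT10 in both operations, of *Txnip*, whose time ratios had opposite signs, and of *Fkbp5*, the classical target. Each runs 5′ to 3′ on the strand of the gene and ends with the base before the start. Capitals mark the hexamer in *Sult1a1*, beginning 212 and 34 bases before the start, the E-box in *Fkbp5*, 169 bases before it, and the core in *Txnip*, 170 bases before it. In the windows of *Plin4*, *Mfsd2a* and *Hif3a* these letters do not occur.
Plin4, chr17:56109783-56110032, minus strand: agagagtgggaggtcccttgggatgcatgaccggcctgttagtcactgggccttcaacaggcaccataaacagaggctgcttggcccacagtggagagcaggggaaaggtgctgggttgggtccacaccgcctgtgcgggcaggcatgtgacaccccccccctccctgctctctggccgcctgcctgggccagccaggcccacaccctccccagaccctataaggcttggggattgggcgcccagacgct
Sult1a1, chr7:126676419-126676668, minus strand: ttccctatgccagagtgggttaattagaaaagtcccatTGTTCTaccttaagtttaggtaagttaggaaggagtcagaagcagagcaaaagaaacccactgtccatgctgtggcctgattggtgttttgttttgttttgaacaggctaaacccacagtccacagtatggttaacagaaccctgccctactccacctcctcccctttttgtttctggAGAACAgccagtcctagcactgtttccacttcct
Mfsd2a, chr4:122961189-122961438, minus strand: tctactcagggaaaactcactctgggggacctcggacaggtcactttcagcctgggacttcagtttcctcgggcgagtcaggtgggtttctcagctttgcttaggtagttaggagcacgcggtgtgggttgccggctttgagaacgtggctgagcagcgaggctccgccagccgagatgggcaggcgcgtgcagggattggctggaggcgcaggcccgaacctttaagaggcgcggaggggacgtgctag
Hif3a, chr7:17062428-17062677, minus strand: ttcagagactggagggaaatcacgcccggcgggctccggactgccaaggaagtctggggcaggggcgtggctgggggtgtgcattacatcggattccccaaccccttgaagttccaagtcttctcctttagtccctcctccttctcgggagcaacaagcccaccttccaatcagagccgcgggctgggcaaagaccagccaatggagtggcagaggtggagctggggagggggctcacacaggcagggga
Txnip, chr3:96557707-96557956, plus strand: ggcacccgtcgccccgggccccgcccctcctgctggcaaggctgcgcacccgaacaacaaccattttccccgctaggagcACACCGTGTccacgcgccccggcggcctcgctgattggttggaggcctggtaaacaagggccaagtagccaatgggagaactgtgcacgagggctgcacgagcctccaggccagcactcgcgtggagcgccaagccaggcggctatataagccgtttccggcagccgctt
Fkbp5, chr17:28486150-28486399, minus strand: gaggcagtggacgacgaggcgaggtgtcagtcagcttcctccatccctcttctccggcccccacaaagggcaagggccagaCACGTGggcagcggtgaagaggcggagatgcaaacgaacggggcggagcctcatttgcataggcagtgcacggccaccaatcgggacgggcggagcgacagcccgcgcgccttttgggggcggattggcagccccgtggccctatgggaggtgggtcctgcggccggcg

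The first question was which members differed between ZT10 and ZT22 in mice with adrenal glands. In sham+PSL mice 5 of the 34 members were at least 1.5-fold higher at ZT10, namely *Plin4*, *Sult1a1*, *Zbtb16*, *Hif3a* and *Mfsd2a*, and 1 was at least 1.5-fold lower, *Angptl4*. These are 14.7% and 2.94% of the members, and over all genes the shares were 2.48% higher and 3.58% lower. The remaining 28 members stayed under 1.5-fold. A ratio above 1 was seen for 25 members (73.5%) against 50.9% of all genes, and the median log2 ratio was 0.21 against 0.00. At a ratio of 2 and a Z-score of 2, the limits named in the study's methods, 3 members passed, which were *Plin4* and *Hif3a* upward and *Angptl4* downward (8.82%, against 1.19% of all genes in either direction).

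In ADX+PSL mice, 8 members were at least 1.5-fold higher at ZT10 and none was as much lower. They were *Plin4*, *Sult1a1*, *Cdkn1a*, *Mt1*, *Mt2*, *Errfi1*, *Hif3a* and *Mfsd2a*, or 23.5% of the members against 1.84% of all genes, while 2.76% of all genes were lower. A ratio above 1 was seen for 26 members (76.5%) against 50.1%, and the median log2 ratio was 0.24 against 0.00. The limits of the methods were passed by *Plin4*, *Sult1a1* and *Mt2* (8.82% against 0.908%), all upward. With the ADX+PSL time labels exchanged, the same 8 members count as lower at ZT10 (against 1.84% of all genes), 8 members (23.5%, against 49.8%) have a ratio above 1, and the median becomes -0.24.

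By the deposited labels, a higher level at ZT10 was not confined to mice with adrenal glands. At least 1.5-fold higher at ZT10 in both operations were 4 members, *Plin4*, *Sult1a1*, *Hif3a* and *Mfsd2a* (11.8%), against 0.336% of all genes, and none was lower in both, against 0.577%. With the ADX+PSL labels exchanged, these 4 members went in opposite directions in the operations, and none was past 1.5-fold upward in both (against 0.283% of all genes). The pattern of a time difference with adrenal glands only, defined by a ratio of at least 1.5 in sham+PSL, under 1.5-fold in ADX+PSL, and lower in ADX+PSL on average, was met by 1 member, *Zbtb16* (2.94%), and by 1.06% of all genes. *Zbtb16* lay close to the limit in both operations, with log2 ratios of 0.60 and 0.46. Over the 34 members the time ratios of the operations, which share no array, were correlated with r = 0.56 (Pearson), against 0.08 over all 19055 genes. These are correlations across genes, which are not independent replicates, and genes of a cell type that varied between slices share that variation. Without *Plin4*, *Sult1a1* and *Mfsd2a* the r over the other 31 members was 0.37, and without *Hif3a* as well, the fourth member past 1.5-fold in both operations, it was 0.18 over 30 members. These members were left out because of the pattern that r measures. The correlation of ranks (Spearman) was 0.52 over the 34 members, 0.38 over the 31, 0.32 over the 30 and 0.06 over all genes. The signs of all these coefficients turn with the labels. The time ratio was larger in sham+PSL than in ADX+PSL for 15 members (44.1%) and for 49.8% of all genes, and with the ADX+PSL labels exchanged for 26 members (76.5%) and 51.0% of all genes. The median difference of the log2 ratios was -0.03 over the members, and 0.36 with the ADX+PSL labels exchanged.

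**Figure D2:**
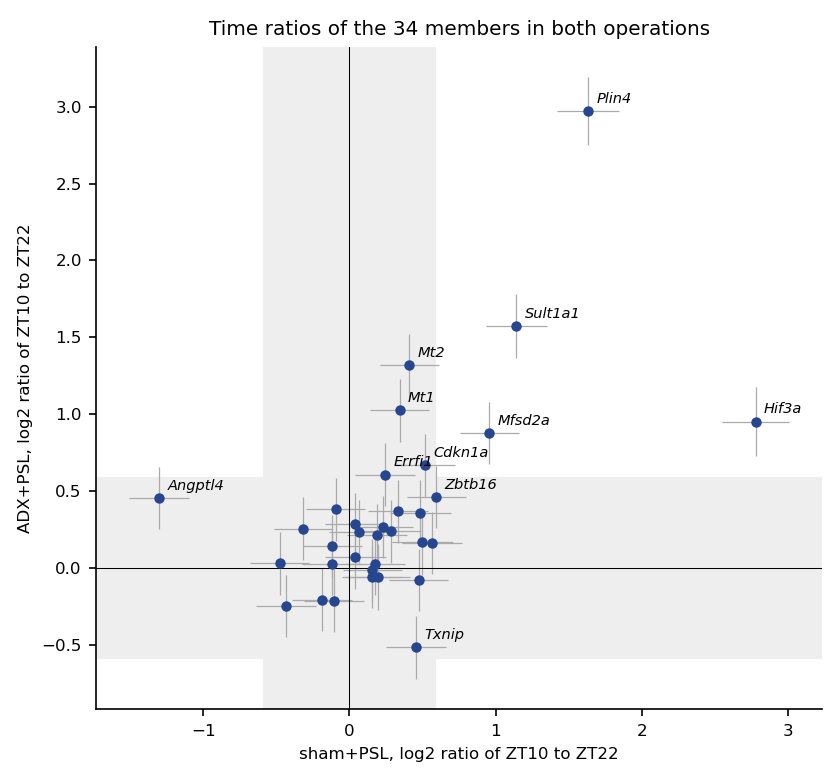
Log2 time ratio (ZT10 over ZT22) of sham+PSL (horizontal) and ADX+PSL (vertical) for the 34 members, with bars of 1 spot error; grey bands are ratios under 1.5-fold. *Plin4*, *Sult1a1*, *Mfsd2a* and *Hif3a* lie beyond the bands at upper right, *Angptl4* lies at left and *Txnip* lies lowest.

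Among the regulators that feed back on the hormone or restrain inflammation, differences were small. *Fkbp5*, a co-chaperone that lowers the receptor's affinity for the hormone (mm9 chromosome 17, 28536060 to 28536119), had levels of 1515 at ZT10 and 1201 at ZT22 in sham+PSL, and the ADX+PSL levels were 1398 and 1083. *Tsc22d3*, which encodes the leucine zipper protein GILZ (mm9 chromosome X, 137074094 to 137074153), had 12089 and 10297 in sham+PSL and 11935 and 9929 in ADX+PSL. Both genes were slightly higher at ZT10 in both operations, with log2 ratios of 0.33 and 0.37 for *Fkbp5* and of 0.23 and 0.27 for *Tsc22d3*, and the ADX+PSL level differed from the sham+PSL level by less than 1 spot error at either time, with log2 ratios of -0.12 and -0.15, and of -0.02 and -0.05. This held for the deposited labels only. With the ADX+PSL labels exchanged these ratios were -0.48 and 0.22 for *Fkbp5* and -0.28 and 0.21 for *Tsc22d3*, all past 1 spot error, and that of *Fkbp5* at ZT10 past 2. *Nfkbia*, the inhibitor of NF-κB, was highest in sham+PSL at ZT10, where its level was 3890.2 against 2801, 2840.1 and 3001 on the sham+PSL ZT22, ADX+PSL ZT10 and ADX+PSL ZT22 arrays. *Dusp1*, a phosphatase of MAP kinases, stayed between 397 and 484. None of these 4 genes differed by 1.5-fold in any comparison. Few of all genes did, with shares between 1.84% and 3.58% in each direction of each comparison.

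Of the 8 metabolic and lipid genes, 3 were higher at ZT10 by 1.5-fold or more in sham+PSL (37.5%, against 2.48% of all genes), and the same 3 in ADX+PSL (against 1.84%), where they were lower at ZT10 under the exchange of labels (against 1.84% of all genes). *Plin4*, a coat protein of lipid droplets (mm9 chromosome 17, 56240055 to 56240114), gave 277 at ZT10 and 89.3 at ZT22 in sham+PSL, and 637 and 81.0 in ADX+PSL, so that both ZT10 arrays were above both ZT22 arrays. It was 3.10-fold higher at ZT10 in sham+PSL and 7.85-fold higher in ADX+PSL, and at ZT10 it was 2.30-fold higher in ADX+PSL than in sham+PSL, whereas with the ADX+PSL labels exchanged it was lower there (log2 ratio -1.77). *Plin4* is also known from adipocytes and muscle. On the array where *Plin4* was highest, *Adipoq*, *Plin1*, *Lep*, *Cidec* and *Fabp4* were not well above background and the muscle genes were low, whereas the adipocyte genes *Retn* and *Cfd* were well above background, and *Cfd* was highest there, with 31.9 against 16.1 in sham+PSL at ZT10. The part of adipocytes in the result was not tested.

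*Sult1a1*, a sulfotransferase of phenols and hormones (mm9 chromosome 7, 133816605 to 133816664), was measured at 547 at ZT10 and 247 at ZT22 in sham+PSL and at 516 and 173 in ADX+PSL. It was 2.21-fold higher at ZT10 in sham+PSL and 2.98-fold higher in ADX+PSL, and its other probe gave 2.19-fold and 3.20-fold. *Mfsd2a*, the transporter that carries lipids with polyunsaturated fatty acids across the endothelium into the nervous system (mm9 chromosome 4, 122624182 to 122624241), had 4047 and 2082 in sham+PSL and 4603 and 2507 in ADX+PSL. It was higher at ZT10 by 1.94-fold in sham+PSL and by 1.84-fold in ADX+PSL, 2 values that differ by less than the spot error. The summed levels of the 6 endothelial genes were 10013 and 11306 in sham+PSL and 11459 and 12096 in ADX+PSL, lower at ZT10 in both. By gene, 2 of the 6 were higher at ZT10 in sham+PSL and 4 in ADX+PSL, where *Cldn5* had 3082 and 4616, and their part in the result was not tested.

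*Angptl4*, a secreted inhibitor of lipoprotein lipase (mm9 chromosome 17, 33911880 to 33911939), ran the other way in sham+PSL. Its level was 483 at ZT10 and 1189 at ZT22 in sham+PSL, and 979.7 and 715 in ADX+PSL. It was 2.46-fold lower at ZT10 in sham+PSL and 1.37-fold higher at ZT10 in ADX+PSL, each by more than 2 spot errors. Red blood cell genes were low on the array where *Angptl4* was highest, and their part in the result was not tested. The other metabolic members were under 1.5-fold in all comparisons, as were most of all genes. *Pdk4*, a kinase that shuts off pyruvate dehydrogenase, had levels between 459 and 570.4. *Gpd1*, a dehydrogenase of glycerol phosphate, lay between 19178 and 21355, *Lpin1*, a phosphatase of phosphatidic acid, between 1062 and 1185, and the tyrosine aminotransferase *Tat* between 93.2 and 125.

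Of the 7 transcription factors, 6 had a sham+PSL time ratio above 1 (50.9% of all genes did) and all 7 an ADX+PSL ratio above 1 (50.1%), which became 0 of 7 (49.8%) with the ADX+PSL labels exchanged. *Hif3a*, a member of the hypoxia-inducible factor family (mm9 chromosome 7, 17616855 to 17616914), was measured at 348 at ZT10 and 50.6 at ZT22 in sham+PSL and at 145 and 75.2 in ADX+PSL. The sham+PSL ZT10 array was the highest and the sham+PSL ZT22 array the lowest of the 4. It was 6.86-fold higher at ZT10 in sham+PSL and 1.93-fold in ADX+PSL, and at ZT10 *Hif3a* was 2.39-fold lower in ADX+PSL than in sham+PSL. With normexp in place of background subtraction the log2 ratios were 1.86 and 0.59 in place of 2.78 and 0.95. The skeletal muscle genes were also highest on the sham+PSL ZT10 array. The summed level of the red blood cell genes was highest there too, and lowest on the sham+PSL ZT22 array. The part of either list in the result was not tested. The other probes of *Hif3a* were at or near background, with levels of at most 21.0.

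*Zbtb16*, a zinc finger repressor (mm9 chromosome 9, 48462419 to 48462478), had 1724 (ZT10) and 1140.3 (ZT22) on the sham+PSL arrays, and 1630.2 and 1184 on the ADX+PSL arrays, with both ZT10 arrays above both ZT22 arrays. *Bcl6*, another repressor, showed the same order at smaller size, with 3325 and 2724 in sham+PSL and 3489 and 2961 in ADX+PSL. *Klf9* and the 3 C/EBP genes *Cebpa*, *Cebpb* and *Cebpd* had lower levels on either ADX+PSL array than on either sham+PSL array, *Cebpb* at ZT10 by less than 1 unit of level. This order was met by 4 of the 7 transcription factors (57.1%) and by 15.7% of all genes. In *Cebpd* the levels were 1381 (ZT10) and 1211 (ZT22) on the sham+PSL arrays, and 1019 and 879 on the ADX+PSL arrays, log2 ratios of -0.44 and -0.46 between the operations. For *Cebpb* these ratios were -0.001 and -0.48, for *Cebpa* -0.29 and -0.31, and for *Klf9* -0.26 and -0.11, all of them under 1.5-fold. Fibroblast genes were lower on the same arrays by a median log2 ratio of -2.43 at ZT10 and -2.0 at ZT22, and their part in the result was not tested.

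Among genes of stress, growth arrest and metal binding, the metallothionein *Mt2* (mm9 chromosome 8, 96697371 to 96697430) had levels of 73296 at ZT10 and 55142 at ZT22 in sham+PSL, and the ADX+PSL levels were 59635 and 23919. Its neighbour *Mt1* (mm9 chromosome 8, 96704165 to 96704224) had 94030.3 and 74085 in sham+PSL and 103402 and 50783 in ADX+PSL. By their brightest probes the ADX+PSL ZT22 array was the lowest for both genes, and the ratio of ZT10 to ZT22 was larger in ADX+PSL, 2.49 and 2.04, than in sham+PSL, 1.33 and 1.27. The direction of the ADX+PSL ratios turns with the labels (log2 -1.32 and -1.03), and the dimmer probe of *Mt1* had the larger ratio in sham+PSL (log2 0.85 against 0.33). No spot on the arrays was saturated.

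*Cdkn1a*, which encodes the cell cycle inhibitor p21 (mm9 chromosome 17, 29237377 to 29237436), had 462 (ZT10) and 323 (ZT22) on the sham+PSL arrays, and 695 and 438 on the ADX+PSL arrays. Its probe was printed 10 times on each array, and the SD of its log2 signal over these spots lay between 0.03 and 0.04. It was higher at ZT10 in both operations, 1.43-fold and 1.59-fold, and higher in ADX+PSL at both times, 1.503-fold at ZT10 and 1.36-fold at ZT22.

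*Txnip*, an arrestin-like protein that binds thioredoxin and limits glucose uptake (mm9 chromosome 3, 96365147 to 96365206), had 457 and 334 in sham+PSL and 216 and 310.0 in ADX+PSL. The ADX+PSL ZT10 array was the lowest, 2.11-fold under sham+PSL at the same time, and the log2 time ratios were 0.45 (sham+PSL) and -0.52 (ADX+PSL). The related arrestins differed from it and from each other. *Arrdc2* was highest in sham+PSL at ZT10, with 1903 against levels between 1288 and 1447 on the other arrays, and *Arrdc3* was lower at ZT10 in both operations, with log2 ratios of -0.43 and -0.25. *Ddit4* and *Sesn1*, inhibitors of the growth kinase mTOR, differed little, with *Ddit4* between 13103 and 15605 and *Sesn1* between 2074 and 2440.0.

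Of the 7 signalling and cytoskeleton members, none differed by 1.5-fold with time in sham+PSL (2.48% of all genes were higher and 3.58% lower) and 1, *Errfi1*, was higher in ADX+PSL (14.3%, against 1.84%), or lower under the exchange of labels (against 1.84%). *Errfi1*, a feedback inhibitor of the EGF receptor (mm9 chromosome 4, 150242886 to 150242945), had 3461 (ZT10) and 2919.9 (ZT22) on the sham+PSL arrays, and 4556 and 2995 on the ADX+PSL arrays, of which the ADX+PSL ZT10 level stood above the others. *Net1*, a guanine nucleotide exchange factor (mm9 chromosome 13, 3882439 to 3882498), had 204 and 144 in sham+PSL and 124 and 110.3 in ADX+PSL, and at ZT10 it was 1.64-fold lower in ADX+PSL. *Map3k6*, a kinase, had levels between 113 and 182, and *Tgm2*, a transglutaminase, between 679 and 947. The small GTPase *Rhob* lay between 1005 and 1207 and *Rgs2*, a brake on G protein signalling, between 5936 and 6887. *Rhob*, *Rgs2* and *Arrdc3* were the members with ratios below 1 in both operations by their brightest probes, whereas the second probe of *Rgs2* had ratios of 1.07 and 1.26.

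**Figure D3:**
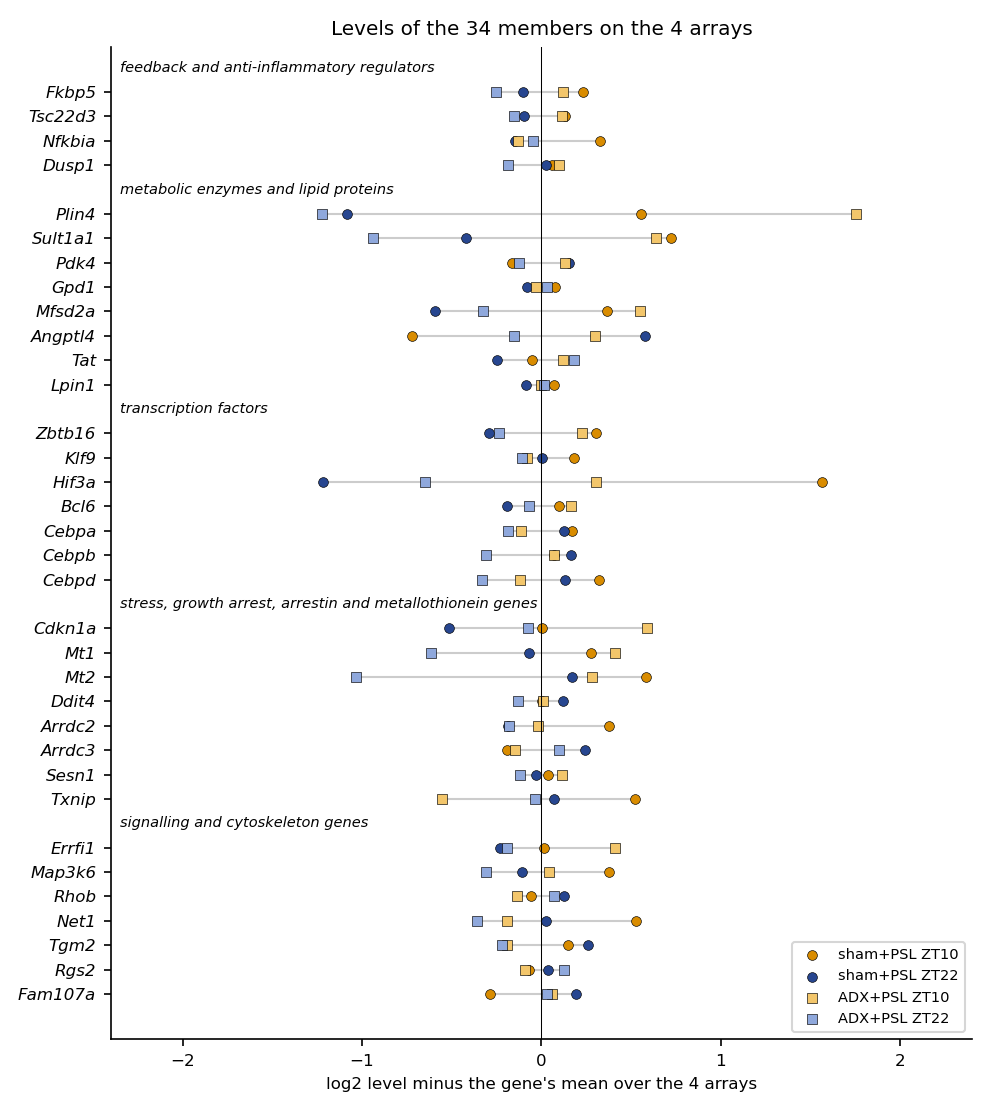
Levels of the 34 members on the 4 arrays, grouped by role, as log2 level minus the gene's mean over the arrays (horizontal axis; circles sham+PSL, squares ADX+PSL, orange ZT10, blue ZT22; 1 array each). *Plin4*, *Hif3a* and *Sult1a1* spread widely, with the ZT10 arrays to the right, whereas *Fkbp5*, *Tsc22d3* and most others stay within a narrow range.

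The next question was how the members differed between the operations at each time. These comparisons use the same 4 arrays as the time ratios and are not independent of them. At ZT10, when the hormone is high in sham+PSL mice, 3 members were at least 1.5-fold lower in ADX+PSL (8.82%, against 3.18% of all genes), *Hif3a*, *Net1* and *Txnip*, and 3 were as much higher (against 3.13%), *Plin4*, *Cdkn1a* and *Angptl4*. At ZT22, 2 members were lower (5.88%, against 3.34%), *Mt2* and *Angptl4*, and none was higher (against 2.9%). A ratio above 1 was seen for 14 members (41.2%, against 51.0%) at ZT10 and for 12 (35.3%, against 51.9%) at ZT22. The median log2 ratio was -0.05 at ZT10 and -0.12 at ZT22, and over all genes it was 0.00 and 0.01. Thus 28 of the 34 members at ZT10 and 32 at ZT22 differed by less than 1.5-fold between mice with and without adrenal glands. Most of all genes did so too. Higher and lower by 1.5-fold were 3.13% and 3.18% of them at ZT10, and 2.9% and 3.34% at ZT22. With the ADX+PSL time labels exchanged, 9 members were lower (26.5%, against 3.03% of all genes) and none higher (against 3.57%) at ZT10, with a median of -0.32 against 0.01. At ZT22, 1 was then lower (2.94%, against 4.36%) and 6 were higher (17.6%, against 2.87%), with a median of 0.08 against 0.02. Ratios above 1 were then found for 7 members at ZT10 (20.6%, against 51.1%) and for 20 at ZT22 (58.8%, against 53.5%), so that the ZT22 share passed to the other side of that of all genes. *Angptl4* was then under 1.5-fold at both times (log2 ratios 0.57 and -0.28), *Txnip* was under it at ZT10 (-0.56) and past it at ZT22 (-0.62), and *Hif3a* had -2.21 at ZT10.

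**Figure D4:**
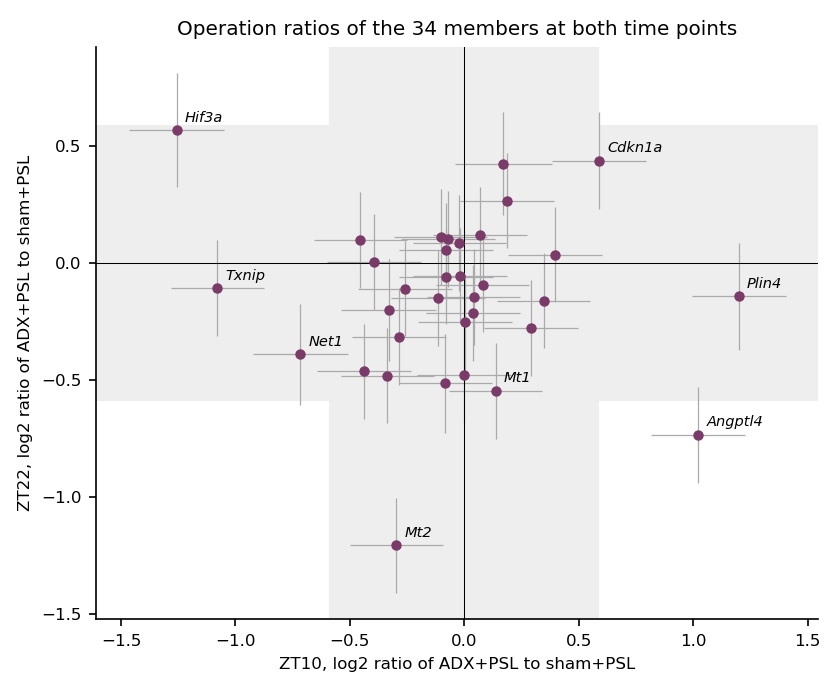
Log2 ratio of ADX+PSL to sham+PSL at ZT10 (horizontal) and at ZT22 (vertical) for the 34 members, with bars of 1 spot error; grey bands are ratios under 1.5-fold. Most members lie within both bands, *Hif3a*, *Txnip* and *Net1* lie to the left, *Plin4* and *Angptl4* to the right and *Mt2* at the bottom.

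By the order of the 4 levels, 7 members had lower levels on either ADX+PSL array than on either sham+PSL array (20.6%, against 15.7% of all genes), and 1, *Tat*, had higher levels on either (2.94%, against 19.2%). Besides *Klf9* and the C/EBP genes, the 7 were *Net1*, *Tgm2* and *Txnip*. The 7 measured fibroblast genes had this order too, and whether the cell content of the samples bore on the count was not tested. This count does not depend on the time labels. The sham+PSL ZT10 array was the highest of the 4 for 16 members (47.1%, against 24.3% of all genes), the sham+PSL ZT22 array for 8 (23.5%, against 24.8%), the ADX+PSL ZT10 array for 8 (23.5%, against 24.8%) and the ADX+PSL ZT22 array for 2 (5.88%, against 26.1%). By the labels, a ZT10 array was thus the highest for 24 members (70.6%, against 49.1% of all genes), and with the ADX+PSL labels exchanged for 18 (52.9%, against 50.4%).

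Of the 34 genes, 13 had several probes. For *Txnip* the dimmer probe had log2 time ratios of 0.82 (sham+PSL) and -0.22 (ADX+PSL), the same signs as the brightest. Probes that were well above background on all arrays differed from the brightest most in *Fam107a*, *Mt1* and *Lpin1*. The dimmer probe of *Fam107a*, an actin-binding protein of astrocytes and neurons, had levels of 1138 at ZT10 and 628 at ZT22 in sham+PSL, and the ADX+PSL levels were 1732 and 582, ratios of ZT10 to ZT22 of 1.81 and 2.98. The brightest probe of the gene had 8616 and 11988 in sham+PSL and 10953 and 10735 in ADX+PSL, with ratios of 0.72 and 1.02. The dimmer probe of *Mt1* had 609.5 and 337 in sham+PSL and 206 and 164 in ADX+PSL, and was lower in ADX+PSL at both times, which the brightest probe was not at ZT10. The second probe of *Lpin1*, with levels of at most 54.0, was 1.96-fold higher at ZT10 in sham+PSL. Of the other probes of *Cdkn1a*, each was well above background on 1 array only, the sham+PSL ZT22 array at a level of 115 for the brighter of them. Which transcripts these probes detect was not analysed here.

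**Figure D5:**
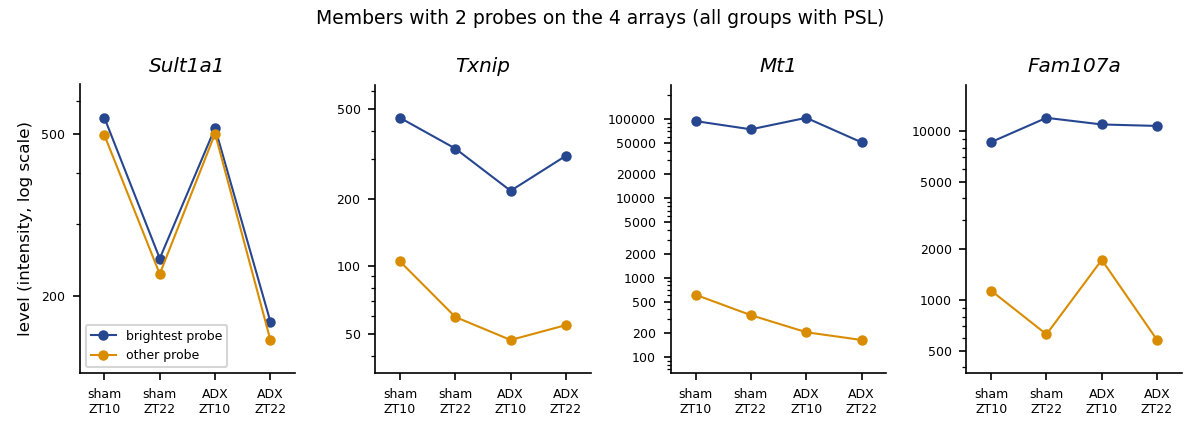
Levels (log scale, each panel with its own axis) of the brightest probe and the other probe of *Sult1a1*, *Txnip*, *Mt1* and *Fam107a* on the 4 arrays. The probes of *Sult1a1* and *Txnip* keep the same order of arrays or nearly so, while those of *Mt1* and *Fam107a* differ.

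Among 13 further genes induced by the receptor, all well above background on the 4 arrays, the ratio of ZT10 to ZT22 was above 1 for 11 in sham+PSL (84.6%, against 50.9% of all genes; median log2 ratio 0.17) and for 10 in ADX+PSL (76.9%, against 50.1%; median 0.26). It was above 1 for 3 of them in ADX+PSL (23.1%, against 49.8%) under the exchange of labels. *Sgk1*, a kinase that regulates ion channels, was the only one of them past 1.5-fold upward in sham+PSL (7.69%, against 2.48% of all genes). It had a log2 ratio of 1.15 there and 0.34 in ADX+PSL, and it was 2.12-fold lower in ADX+PSL than in sham+PSL at ZT10. The study had selected *Sgk1* from these same arrays by such a pattern, so that its values here are not a separate observation. Its log2 time ratio in ADX+PSL was -0.34 under that exchange, and its log2 ratio between the operations at ZT10 -1.42. At ZT10, 3 of the 13 genes were at least 1.5-fold lower in ADX+PSL (23.1%, against 3.18% of all genes), *Sgk1*, *Plekhf1* and *Anxa1*. *Plekhf1* had a log2 ratio between the operations of -0.76 at ZT10 and -0.25 at ZT22. *Anxa1*, a mediator that restrains leukocytes, was lower in ADX+PSL at both times, with levels of 186 at ZT10 and 274 at ZT22 in sham+PSL against 65.1 and 84.7, as were the fibroblast genes, and their part in this was not tested. Within ADX+PSL, *Lcn2* was 1.80-fold higher at ZT10 than at ZT22, a direction that turns with the labels.

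Of 9 genes that the receptor is known to repress, 3 were well above background on all arrays, *Ccl2*, *Nos2* and *Mmp9*, and *Tnf* and *Cxcl1* on none. The chemokine *Ccl2* had levels of 441 at ZT10 and 745 at ZT22 in sham+PSL, and the ADX+PSL levels were 264 and 563, so that it was lower at ZT10 in both operations by the deposited labels, and higher at ZT10 in ADX+PSL with the labels exchanged (log2 ratio 1.095). *Mmp9*, a matrix protease, went the other way, with log2 time ratios of 0.47 (sham+PSL) and 0.61 (ADX+PSL), and *Nos2*, a nitric oxide synthase, had -0.07 and 0.12. The ADX+PSL values of both turn with the labels, to -0.61 for *Mmp9*, lower at ZT10. Between the operations, *Ccl2* was lower in ADX+PSL at ZT10 and ZT22 (log2 ratios -0.74 and -0.40), as was *Mmp9* (-0.23 and -0.37). *Nos2* was higher in ADX+PSL at both times (0.29 and 0.10). With the labels exchanged, *Ccl2* was higher in ADX+PSL at ZT10 and lower at ZT22. Of 7 immediate early genes, which stimuli of many kinds induce, 6 were measured on all arrays, with a median log2 time ratio of -0.05 (sham+PSL) and 0.16 (ADX+PSL). Without the 7 members that are also early response genes, the median over the members was 0.29 in sham+PSL, against 0.21 with them.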

How the data were processed

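The arrays are Agilent whole mouse genome arrays. The authors deposited spot intensities of Agilent's extraction program (the submitters' notes say version 9.5.1.1, the file headers 10.7.1.1), of which the processed signal is background-subtracted and not normalized between arrays, and a table of linear intensities quantile-normalized over the 4 arrays. Levels are from that table, whose median was 105 on each array. Probes were called well above background by the deposited flag, in at least 50% of the spots of the probe. The spot error is the software's error of the processed signal, propagated to the log2 ratio. The methods do not define the Z-score, so each log2 ratio was centred and scaled by the mean and SD of all probes. Probe positions are given for members past 1.5-fold in any comparison and for *Fkbp5* and *Tsc22d3*. The members and the lists were chosen with earlier results of these data known. No test was made, with 1 array per condition, and precision is limited by the number of arrays. Normalization alternatives used limma 3.58.1 in R 4.3.3, other steps Python 3.11.15, numpy 2.4.6, pandas 2.3.3 and scipy 1.17.1. The counting code was run on simulated levels with known differences. Probe coordinates are of mm9, promoter coordinates of GRCm38.p6.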

Additional observations from a re-analysis of the deposited data

Results flagged for a closer look

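Some genes had opposite directions in the groups compared, each by more than 2 spot errors, and in none of them was the difference tested, since each condition has 1 array. The log2 time ratio in sham+PSL minus that in ADX+PSL was -1.75 for *Angptl4* and 0.97 for *Txnip* among the members, and 1.78 for *Nr1d1*, 1.53 for *Dbp* and -1.03 for *Nr4a1* among the other genes. The log2 ratio of ADX+PSL to sham+PSL at ZT10 minus that at ZT22 was 1.75 for *Angptl4* and -1.83 for *Hif3a* among the members, and 1.03 for *Nr4a1* and -1.86 for *Ier2* among the immediate early genes. Cell type markers did so too, with time differences of 2.20 for *S100a9*, 2.17 for *S100a8* and 1.94 for *Lum*, and opposite operation ratios at ZT10 and ZT22 for *S100a8* and *S100a9* and for *Hba-a1*, *Hba-a2*, *Hbb-b1* and *Alas2*. These differences and those of the time ratios are the same 4 levels taken in another order. With the ADX+PSL time labels exchanged, *Dbp* and *Nr1d1* would be higher at ZT10 in both operations, with log2 ratios of 1.04 and 0.75 in ADX+PSL, *Angptl4* and *Txnip* would keep the direction they have in sham+PSL, with -0.45 and 0.52, and *Plin4*, *Sult1a1*, *Hif3a* and *Mfsd2a* would go in opposite directions.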

How the results depend on the processing

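The exchange of the ADX+PSL time labels was chosen after seeing the data. A count had moved if it differed by more than 1.5 times, a median if by more than 0.04 (log2), the spot error of a median over 34 genes. Quantile normalization done here, the 75th percentile shift, normexp, the mean over a gene's probes and other filters on dim probes moved no count or median of the members, though normexp moved 18 of 96 single-gene ratios and the mean over probes 4. The all-gene shares higher at ZT10 in sham+PSL and ADX+PSL, 2.48% and 1.84%, became 1.24% and 0.845% with normexp, 5.44% and 5.46% with genes above background on at least 1 array, and 6.71% and 6.84% with no filter. The shares lower at ZT10, and those of the operations, also moved by more than 1.5 times. Those lower in ADX+PSL at ZT10 and ZT22, 3.18% and 3.34%, became 1.58% and 1.74% with normexp. They were 5.9% and 6.34% with genes above background on at least 1 array, and 6.97% and 7.85% with no filter. The members' 5.88% lower at ZT22 lay above 3.34% and below 6.34% and 7.85%. Quantile normalization of each operation's pair gave 1 of the 34 members higher in ADX+PSL at ZT22, against 3.41% of all genes.

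Without normalization between arrays the median log2 ratio over all genes was 0.07 for time in sham+PSL and -0.11 for time in ADX+PSL. For ADX+PSL over sham+PSL it was -0.06 at ZT10 and 0.125 at ZT22. In the authors' normalized levels these medians lay between 0.00 and 0.01. The members' medians became 0.28 and 0.12 for time in sham+PSL and ADX+PSL, -0.13 and -0.012 for the operations at ZT10 and ZT22, and 0.17 for the difference of the time ratios. Relative to all genes they were 0.21, 0.22, -0.08 and -0.14. There 1 member was lower at ZT10 in ADX+PSL (against 3.42% of all genes) and 1 higher in ADX+PSL at ZT22 (against 4.78%). The share of upward among all genes called, 40.9%, 40.0% and 46.5% for time in sham+PSL, time in ADX+PSL and the operations at ZT22, became 51.5%, 29.9% and 66.2%, and 51.2% for time in ADX+PSL with the 75th percentile shift.

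At the methods' limits, 2 members were higher at ZT10 in sham+PSL and 3 in ADX+PSL, 1 was higher and 1 lower in ADX+PSL at ZT10, and 0 were lower at ZT22. Of all genes, 0.499%, 0.31%, 0.383%, 0.798% and 0.619% passed these. At a ratio of 5 to 4, 14 were higher and 3 lower at ZT10 in sham+PSL (all genes 8.56% and 10.4%), 13 and 1 in ADX+PSL (7.64% and 8.34%), and for the operations 5 and 8 at ZT10 (10.65% and 7.87%) and 3 and 8 at ZT22 (10.4% and 9.65%). Without the early response members the sham+PSL median was 0.29. The members known from adipocytes or muscle were *Plin4*, *Gpd1*, *Angptl4*, *Pdk4*, *Lpin1*, *Cebpa* and *Hif3a*. Without them, 3 were at least 1.5-fold higher and 0 lower at ZT10 in sham+PSL (all genes 2.48% and 3.58%). Between the operations, 1 was then higher in ADX+PSL at ZT10 (all genes 3.13%) and 1 lower at ZT22 (3.34%). *Plin4*, *Hif3a* and *Angptl4*, which were left out here, had been among the members past 1.5-fold. The part of adipocytes or muscle in these changes was not tested.

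With the labels exchanged, 0 members were higher and 8 lower at ZT10 in ADX+PSL (median -0.24), 0 higher and 9 lower in ADX+PSL at ZT10 (median -0.32), 6 higher and 1 lower at ZT22 (median 0.080), and the difference of the time ratios had a median of 0.36. The ADX+PSL time ratio turned to -2.97 for *Plin4*, -1.57 for *Sult1a1*, -0.67 for *Cdkn1a*, -1.03 for *Mt1*, -1.32 for *Mt2*, -0.61 for *Errfi1*, -0.95 for *Hif3a*, -0.88 for *Mfsd2a*, -0.85 for *Lcn2*, 1.095 for *Ccl2*, 1.04 for *Dbp*, 0.75 for *Nr1d1* and 1.36 for *Ier2*. The ratio of ADX+PSL to sham+PSL at ZT10 turned to -1.77 for *Plin4*, -0.078 for *Cdkn1a*, 0.35 for *Ccl2* and 0.75 for *Ier2*, and at ZT22 to 0.11 for *Mt2* and -0.10 for *Ier2*. Which labels are right was not tested. No array could be left out of a pair comparison, since each condition has 1 array.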
